A study of Rattus norvegicus with 2 samples.

Results

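The cell proliferation genes were Mki67, Top2a, Cdk1, Ccnb1, Ccna2, Pcna, Mcm2, Mcm6 and Rrm2, 9 of the 22777 genes in the mRNA table of the rat hypothalamus. They were taken by gene name, ignoring case, and all 9 names were found, each with 1 transcript. RNA came from the hypothalamus of female Sprague Dawley rats, killed under pentobarbital sodium anesthesia at postnatal day 25 (prepubertal) and at postnatal day 35 (pubertal). The submitters give 3 hypothalami for each stage, but their values are held in a single column for each stage, so a stage counts here as 1 library and the differences have no replicates behind them. Expression is in FPKM, the number of fragments scaled to transcript length and library size, as estimated by the authors.

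These genes mark cells that copy their DNA and divide, and the RNA of most of them is low in resting cells. The MCM proteins open the DNA helix, PCNA is the sliding clamp of the DNA polymerases, and RRM2 is the small subunit of the enzyme that makes deoxyribonucleotides. Cyclin A2 and cyclin B1 (Ccna2, Ccnb1) switch on the kinase CDK1, topoisomerase II alpha (Top2a) untangles chromosomes, and Ki-67 (Mki67) coats them in mitosis. In the brain after birth, most neurons no longer divide, whereas oligodendrocyte progenitors, some tanycytes, endothelial cells and microglia still can.

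The promoters of the members are shown first, because genes of DNA replication and genes of mitosis are known to carry different control elements. E2F factors bind replication genes, and a CCAAT box (bound by NF-Y) with a cell cycle homology region (CHR) is usual in mitotic genes. The RefSeq promoter table (build GRCr8) held 7 of the 9 members. It did not list Ccna2 and Rrm2. The stretch just before the annotated start is given 5′ to 3′ on the strand of the gene, with matches on either strand in capitals.
Top2a, chr10:84473094-84473268, minus strand: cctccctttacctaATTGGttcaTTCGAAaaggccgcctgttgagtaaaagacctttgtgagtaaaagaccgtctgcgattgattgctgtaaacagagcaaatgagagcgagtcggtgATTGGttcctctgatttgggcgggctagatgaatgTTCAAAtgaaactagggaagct
Cdk1, chr20:19265118-19265292, plus strand: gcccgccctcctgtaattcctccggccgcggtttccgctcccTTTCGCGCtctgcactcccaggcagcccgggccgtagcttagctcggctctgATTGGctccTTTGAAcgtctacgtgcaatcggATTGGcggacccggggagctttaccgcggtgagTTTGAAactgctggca
Mki67, chr1:199952594-199952768, minus strand: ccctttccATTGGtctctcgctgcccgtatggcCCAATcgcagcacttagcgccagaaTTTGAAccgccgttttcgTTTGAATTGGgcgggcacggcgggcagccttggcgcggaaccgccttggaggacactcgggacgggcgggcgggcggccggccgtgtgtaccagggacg
Ccnb1, chr2:33655226-33655400, minus strand: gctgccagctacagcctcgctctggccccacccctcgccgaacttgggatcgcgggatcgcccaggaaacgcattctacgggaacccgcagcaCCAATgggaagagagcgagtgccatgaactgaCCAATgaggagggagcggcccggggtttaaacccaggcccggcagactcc
Mcm2, chr4:122918095-122918269, minus strand: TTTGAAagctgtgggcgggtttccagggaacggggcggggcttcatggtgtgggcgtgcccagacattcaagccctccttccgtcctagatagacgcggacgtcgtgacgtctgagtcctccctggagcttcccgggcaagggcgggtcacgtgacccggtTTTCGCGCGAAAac
Mcm6, chr13:42404353-42404527, minus strand: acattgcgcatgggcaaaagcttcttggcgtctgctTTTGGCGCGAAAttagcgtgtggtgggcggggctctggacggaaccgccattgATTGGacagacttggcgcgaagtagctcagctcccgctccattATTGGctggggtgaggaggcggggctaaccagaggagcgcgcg
Pcna, chr3:139955821-139955995, minus strand: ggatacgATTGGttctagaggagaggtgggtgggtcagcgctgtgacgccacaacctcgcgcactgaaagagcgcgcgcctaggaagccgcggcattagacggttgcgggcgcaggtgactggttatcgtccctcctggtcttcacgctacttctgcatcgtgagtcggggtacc
Both strands were searched from 250 bases before to 50 bases after the start. For the NF-Y element the letters were CCAAT. The CHR was searched as TTTGAA and in its other known form, which reads the same on both strands, as TTCGAA. For E2F the letters were TTTCCCGC, TTTGGCGC, TTTGCCGC and TTTCGCGC. Top2a held 4 CCAAT boxes and 2 CHR matches, with 1 CHR match beginning 22 bases before the start. Cdk1 held 3 CCAAT boxes, 2 CHR matches and 1 E2F match, and Mki67 4 CCAAT boxes and 2 CHR matches. The Mki67 match that begins 99 bases before the start shares 1 base with the next CCAAT box. Mcm2 and Mcm6 each held 2 E2F matches, which overlap in both genes. Mcm2 held 2 CHR matches besides, and Mcm6 2 CCAAT boxes, so that the elements were not divided cleanly between replication genes and mitotic genes. Ccnb1 held 2 CCAAT boxes and Pcna 1 CCAAT box. A CCAAT box was found in 6 of the 7 member windows and in 37.5% of the 33469 promoters of the table, a CHR match in 4 of 7 and 19.7%, and an E2F match in 3 of 7 and 2.14%. A match describes these letters and not a bound site.

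**Figure D1:**
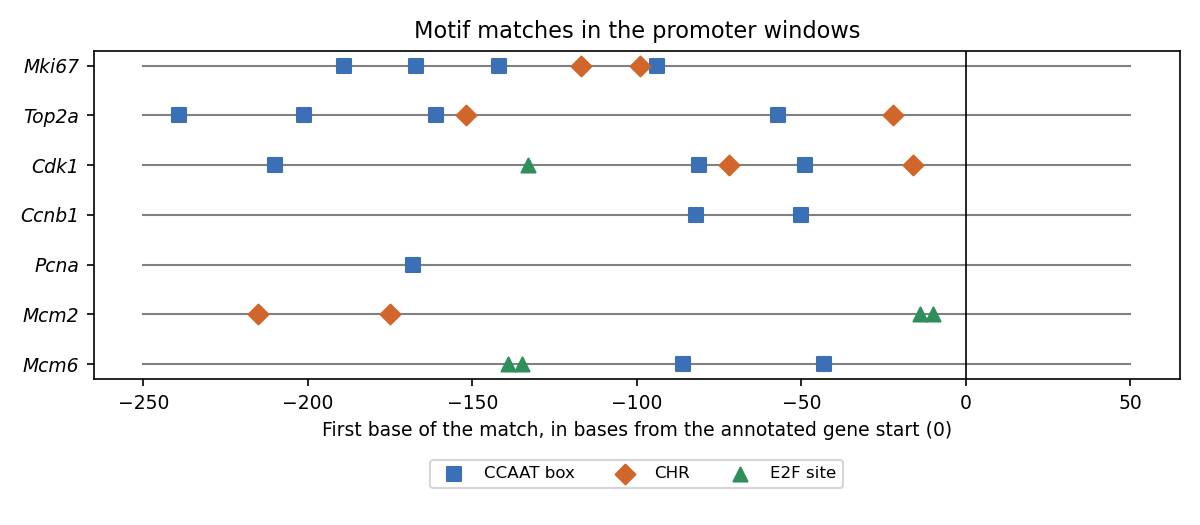
Matches to the CCAAT box (squares), the CHR (diamonds) and the E2F site (triangles) in the promoter windows of 7 members, plotted by the first base of the match in bases from the annotated start. The 2 E2F matches of Mcm2 lie 14 and 10 bases before the start, and those of Mcm6 139 and 135 bases before it.

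All 15 hypothalamic peptide genes listed were above 0 in both libraries. Pmch, the precursor of melanin-concentrating hormone, stood at 1675 FPKM before puberty and 2723 FPKM at puberty. A level above 0 does not set the tissue apart, since the pituitary genes Cga and Tshb were also above 0 in both libraries. Nor does it show that the dissections of the stages matched. The files do not give sequencing depth, but low FPKM values stood at whole multiples of the worth of 1 fragment. In transcripts of at least 600 nt with up to 60 fragments, 93.2% of 3774 values in the prepubertal library and 92.6% of 4136 in the pubertal library were whole within 0.05 fragments, so fragment numbers could be derived. Each interval below is an exact 95% interval of these fragment numbers. It covers counting error only, and the spread between rats is not known.

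Pcna excepted, the members were low. Mki67 stood at 0.952 FPKM before puberty and 0.752 FPKM at puberty, and Ccna2 at 0.882 and 0.630 FPKM. Rrm2 stood at 1.52 and 1.004 FPKM, Cdk1 at 1.76 and 0.856 FPKM, and Top2a at 1.996 and 0.951 FPKM. Ccnb1 stood at 2.63 and 2.20 FPKM, Mcm6 at 3.35 and 2.71 FPKM, and Mcm2 at 3.37 and 3.30 FPKM. In the order of all genes by level, these 8 lay between the 36.8th and the 49.3rd percentile. Pcna stood apart at 51.2 and 59.1 FPKM, at the 89.5th and 90.9th percentile and 15.2 and 17.9 times the level of Mcm2. Whether the RNA of Pcna came from dividing cells was not tested. All 9 members had at least 0.1 FPKM in both libraries, and 7 reached 1 FPKM in 1 library.

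The order of levels before puberty was Pcna, Mcm2, Mcm6, Ccnb1, Top2a, Cdk1, Rrm2, Mki67 and Ccna2. At puberty Rrm2 moved ahead of Top2a and Cdk1, and the order was otherwise the same. Only Pcna and Mcm2 had counting intervals that did not overlap as neighbours, in either library. Farther apart in the order, Top2a (1.73 to 2.30 FPKM) lay above Mki67 (0.821 to 1.10 FPKM) before puberty, whereas at puberty their intervals overlapped, 0.746 to 1.20 FPKM against 0.622 to 0.902 FPKM. Top2a was 2.096 times Mki67 before puberty and 1.26 times at puberty.

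**Figure D2:**
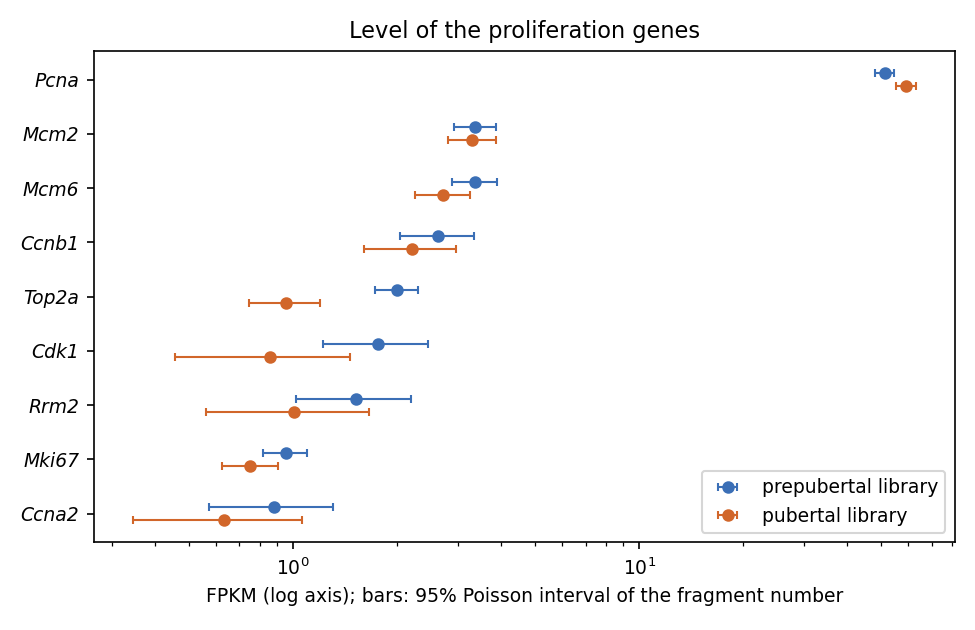
FPKM of each member (log axis) in the prepubertal library (blue) and the pubertal library (orange), with 95% Poisson intervals of the fragment number, 1 library per stage. Pcna lies at 51.2 and 59.1 FPKM, and the other 8 members lie between 0.630 and 3.37 FPKM.

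Between the stages, 8 of the 9 members were lower in the pubertal library and Pcna was higher. Among the 16966 genes with at least 0.1 FPKM in 1 library, 51.2% were lower at puberty (40.4% of all 22777 genes, many of which are listed at 0 in both), and 48.8% were higher (38.9% of all). The median log2 difference of the members, with 1 FPKM added to each value, was -0.21, against 0.00 over all genes. Actb served as the reference gene of the quantitative PCR. When pubertal values were multiplied so that Actb was the same in both libraries, the median of the members was 0.03 and 4 of 9 were lower (Top2a, Cdk1, Rrm2 and Ccna2). That scaling multiplies every pubertal value alike. It left 14.8% of genes with at least 0.1 FPKM lower and moved the median of genes above 0 in both libraries to 0.32, since Actb itself was 763 FPKM before puberty and 576 FPKM at puberty. In whole tissue, fewer dividing cells and less of these RNAs per cell cannot be told apart.

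Top2a and Cdk1 differed most. Top2a, which is made in S phase, G2 and mitosis, was counted by 196 fragments before puberty and 73 at puberty. Its pubertal FPKM was 0.477 times the prepubertal value, with a counting interval of 0.359 to 0.627, and 0.631 times (0.476 to 0.830) with Actb made equal. Top2a has a long transcript (4984 nt), and the longest class of transcripts, of 4442 to 25698 nt, had a median log2 difference of -0.10. Centred on its length class, the log2 difference of Top2a went from -0.62 to -0.51.

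Cdk1, the kinase that starts mitosis, was counted by 34 and 13 fragments. Its ratio was 0.487 (0.236 to 0.947). With Actb made equal it was 0.645 and the interval, 0.312 to 1.25, held 1. Centred within its length class, the log2 difference was -0.61. Top2a and Cdk1 were thus at least 2-fold lower in FPKM, 2 of 9 members against 5.56% of all genes, again a small count. With 1 FPKM added, only Top2a was at least 1.5-fold lower, 1 of 9 members against 1.86% of all genes, because the addition weighs most on low genes.

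The cyclins that bind CDK1 differed less than the counting error. Ccna2 was counted by 25 and 14 fragments, with a ratio of 0.715 (0.343 to 1.43). Ccnb1 was counted by 67 and 44 fragments, with a ratio of 0.838 (0.559 to 1.24). Both intervals hold 1, and that of Ccna2 also holds 0.487, the ratio of Cdk1.

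Mki67, the usual marker of dividing cells, rested on 188 fragments before puberty and 116 at puberty, since its transcript is long (9763 nt). The ratio was 0.790 and the upper end of the counting interval, 0.621 to 1.001, lay just above 1. Its log2 difference of -0.16 became -0.05 when centred within its length class, and 0.03 with Actb made equal. The interval of Mki67 holds values down to 0.621 and that of Top2a values up to 0.627.

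Of the replication genes, Mcm2 was nearly equal in both libraries (210 and 161 fragments), with a ratio of 0.980 (0.794 to 1.21). Its small log2 difference of -0.02 turned to 0.03 when centred within its length class and to 0.30 with Actb made equal, and it also changed sign when the medians of the libraries were made equal, which left 7 members lower. Mcm6 was counted by 185 and 117 fragments, with a ratio of 0.809 (0.636 to 1.02), and its log2 difference turned from -0.23 to 0.08 with Actb made equal. Ccnb1 also changed sign under that scaling, from -0.18 to 0.11. Pcna was counted by 1054 and 955 fragments, with a ratio of 1.15 (1.06 to 1.26) as deposited and 1.53 (1.40 to 1.67) with Actb made equal. Mcm2 also lay above 1 under that scaling, at 1.30 (1.05 to 1.60). Rrm2 was counted by 29 and 15 fragments, with a ratio of 0.659 (0.328 to 1.27).

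In all, the counting interval lay below 1 for 2 of the 9 members and above 1 for 1. Among 14819 genes with 1 transcript, it lay below 1 for 19.2% and above 1 for 15.4%. Among the 3468 of these with 39 to 371 fragments in both libraries together, as the 8 low members had, the shares were 13.0% and 8.68%. A count of 2 among so few genes is too small to be read as different from these shares. With Actb made equal the interval lay below 1 for 1 member (Top2a) and above 1 for 2 (Pcna and Mcm2), beside 1.85% and 56.7% of genes with 1 transcript.

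**Figure D3:**
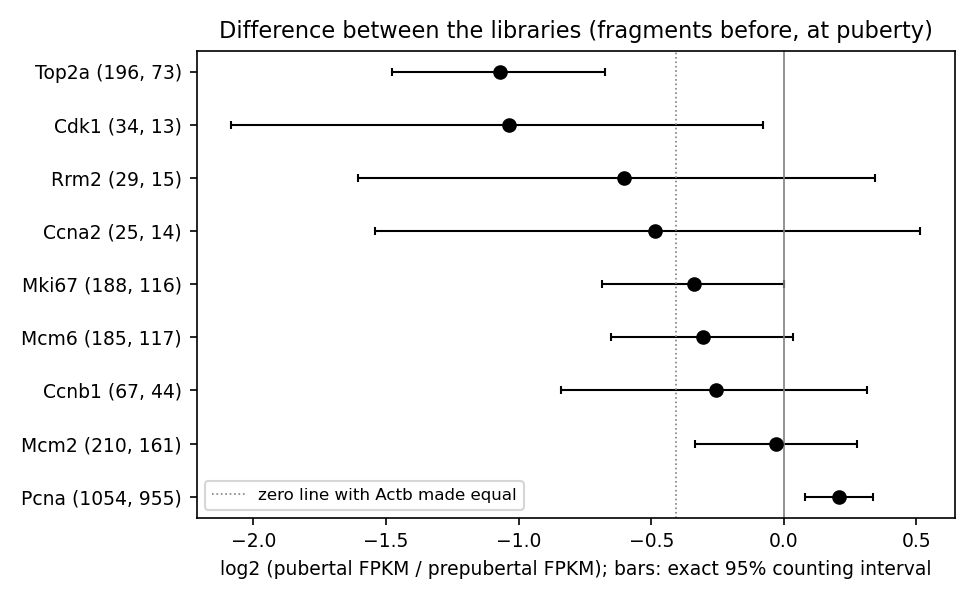
Log2 ratio of pubertal over prepubertal FPKM for each member, with exact 95% counting intervals and the fragment numbers before and at puberty in brackets, 1 library per stage. The intervals of Top2a and Cdk1 lie below 0 and that of Pcna above it. The dotted line shows where 0 would lie with Actb made equal, and Mki67, Mcm6, Ccnb1 and Mcm2 lie to the right of it.

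The members were set beside the other genes of their families. Genes with a like pattern were not sought, since 2 libraries give 1 difference per gene and no pattern. The 6 MCM genes encode the subunits of one helicase ring, but their levels were unequal. Before puberty they ran from 0.763 FPKM for Mcm5 and 1.32 FPKM for Mcm3 to 6.26 FPKM for Mcm7 and 7.50 FPKM for Mcm4, with Mcm2 and Mcm6 between them. At puberty Mcm5 stood at 0.704 FPKM and Mcm4 at 7.41 FPKM, so that Mcm4 was 9.83 and 10.5 times Mcm5. The counting intervals of the ratio held 1 for all 6 MCM genes.

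Ribonucleotide reductase has a large subunit, Rrm1, and alternative small subunits, Rrm2 for dividing cells and Rrm2b, which serves resting cells and DNA repair. Rrm1 stood at 20.5 and 20.8 FPKM and Rrm2b at 19.2 and 21.6 FPKM. Rrm2b was 12.6 times Rrm2 before puberty and 21.5 times at puberty. The intervals of the ratio held 1 for each of these 3 genes.

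Cdk1 and Cdk6 were the lowest of 4 cell cycle kinases, and in both libraries Cdk1 lay far below Cdk4. Cdk4, which acts with D cyclins in G1, stood at 43.5 and 38.9 FPKM, 24.8 and 45.4 times Cdk1. Cdk2, which acts with cyclins E and A, went from 3.61 to 2.45 FPKM, with a ratio of 0.678 (0.508 to 0.901). Cdk6 stood at 1.79 and 1.14 FPKM, with an interval of 0.369 to 1.07. Among the cyclins, the D cyclin gene Ccnd2 (21.4 and 24.8 FPKM) was 24.3 and 39.4 times Ccna2, whereas the B cyclin gene Ccnb2 was at 0.541 and 0.345 FPKM. Pcna was also well above its clamp loader genes, of which Rfc3, Rfc4 and Rfc5 were examined. Of these 3, Rfc3 differed most and stood at 9.17 and 12.4 FPKM (ratio 1.36, 1.10 to 1.67).

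**Figure D4:**
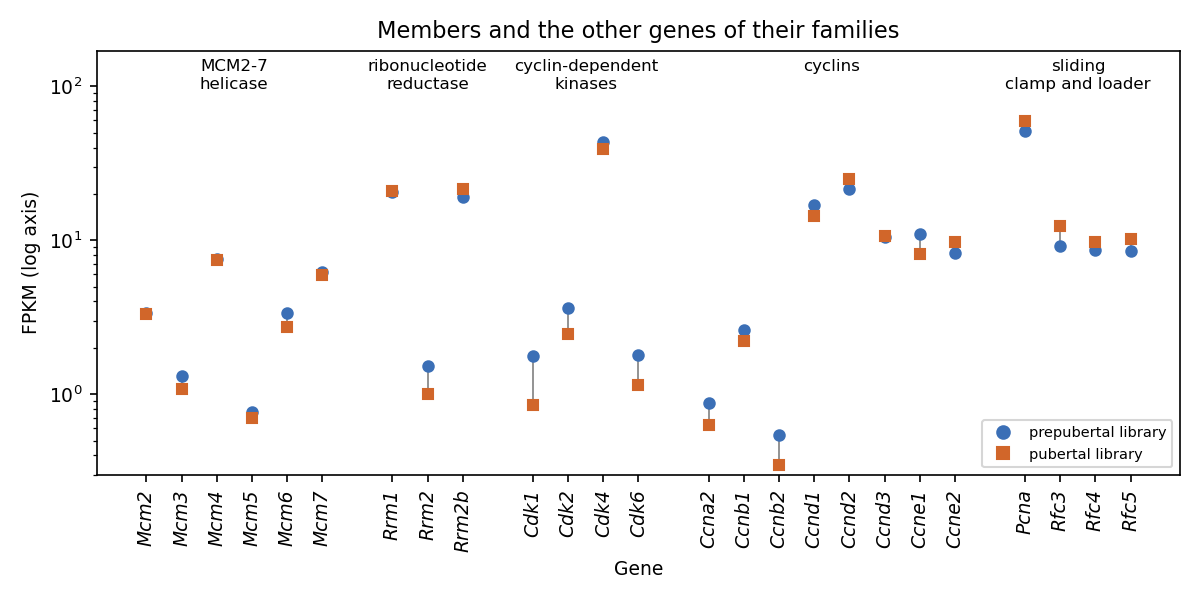
FPKM (log axis) of members and related genes in the prepubertal library (circles) and the pubertal library (squares), 1 library per stage. Rrm1, Rrm2b, Cdk4, Ccnd1 and Ccnd2 lie well above Rrm2, Cdk1 and Ccna2 in both libraries, and Pcna lies above Rfc3, Rfc4 and Rfc5.

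Further cell cycle genes that are no members, without the inhibitors, were counted in 5 lists, of which 115 of 117 genes were in the table. Of these 115 genes, 77 were lower and 38 higher at puberty, with a median log2 difference of -0.07. The counting interval lay below 1 for 19 and above 1 for 6 of the 109 that had one, 17.4% and 5.50%, against 19.2% and 15.4% of all genes with 1 transcript. At least 1.5-fold differences in FPKM + 1 were lower for 2 genes and higher for 1, beside 1.86% and 1.43% of all genes. Without the added FPKM these counts were 24 and 3, beside 8.33% and 6.39% of genes above 0 in both libraries. With 0.1 FPKM added they were 18 and 2, beside 6.88% and 5.80% of all genes. With Actb made equal they were 0 and 10, beside 0.751% and 10.6% of all genes.

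The genes of replication licensing and the fork were divided, 18 lower and 12 higher of 30, with a median of -0.03. Among genes with at least 0.1 FPKM, 51.2% were lower. With equal medians the list held 14 and 16, and with Actb made equal 6 and 24, beside 14.8% of such genes lower. As deposited, the interval lay below 1 for 3 of 29 (10.3%) and above 1 for 4 (13.8%), beside 19.2% and 15.4%. In the range of 39 to 371 fragments it lay below 1 for 0 of 12 and above 1 for 1, beside 13.0% and 8.68%. Prim1, the catalytic subunit of primase and the highest of the 30 genes, stood at 27.5 and 32.0 FPKM (ratio 1.16, 1.03 to 1.30). Wdhd1, a fork protein, was higher at puberty (2.06 and 2.94 FPKM) and Gins2, a subunit of the replicative helicase complex, was lower (3.53 and 2.49 FPKM). Of the 6 genes of nucleotide supply, 3 were lower and 3 higher (0 and 6 with Actb made equal), and all 6 intervals held 1. Dut, which removes dUTP, stood at 28.6 and 31.8 FPKM, and Tk1, the thymidine kinase of S phase, at 4.87 and 4.38 FPKM.

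The genes of G2 and mitosis were lower more often than higher in FPKM as deposited. Among 25 regulators 16 were lower and 9 higher (median -0.18), and among 37 genes of the spindle, kinetochore and condensed chromosomes 29 were lower and 8 higher (median -0.11). Over both lists, 45 of 62 were lower, 72.6% beside 51.2% of genes with at least 0.1 FPKM. Made equal in median or centred by length, 41 of 62 were lower, and with Actb made equal 23 of 62, beside 14.8% of genes with at least 0.1 FPKM. The median of both lists was then 0.09, beside 0.32 over genes above 0 in both libraries. The interval lay below 1 for 10 of 57 genes (17.5%) and above 1 for 0, beside 19.2% and 15.4% of all genes with 1 transcript. These shares depend on the number of fragments. Among the 38 mitosis genes with 39 to 371 fragments in both libraries together, it lay below 1 for 8 (21.1%) and above 1 for 0, beside 13.0% and 8.68% of genes in that range. No test was made of these counts, and the genes named here are those that differed most. Ccnf, which encodes the F-box protein cyclin F, stood at 1.17 and 0.383 FPKM (74 and 19 fragments, ratio 0.328, 0.187 to 0.549). Ncaph, a condensin subunit, stood at 1.19 and 0.381 FPKM (48 and 12 fragments, ratio 0.319, 0.154 to 0.610). Of the chromosomal passenger genes, Aurkb stood at 2.49 and 1.61 FPKM (ratio 0.647, 0.426 to 0.968) and Incenp at 3.96 and 2.66 FPKM (ratio 0.672, 0.537 to 0.838). For the other genes of that complex the interval held 1, with Birc5 at 1.48 and 1.59 FPKM (ratio 1.07, 0.514 to 2.19) and Cdca8 at 2.20 and 2.09 FPKM (ratio 0.948, 0.580 to 1.53).

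Prc1, which bundles microtubules in the dividing cell, stood at 4.38 and 2.74 FPKM (ratio 0.626, 0.499 to 0.783). Fzr1, which directs the destruction of mitotic proteins in G1 and in resting cells, was the highest regulator at 19.5 and 15.8 FPKM. It was 13.3 and 16.9 times Cdc20, its counterpart in mitosis. Of the 8 spindle and chromosome genes that were higher, Anln differed most, from 11.1 to 23.0 FPKM over 2 transcripts. Its product, anillin, acts in cell cleavage and is also found in the myelin of oligodendrocytes.

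Genes of G1 were also lower more often than higher, 11 and 6 of 17 (64.7% lower, beside 51.2% of genes with at least 0.1 FPKM), with a median of -0.13. With Actb made equal, 6 were lower and 11 higher, beside 14.8% of genes with at least 0.1 FPKM lower. As deposited, the interval lay below 1 for 6 of 17 (35.3%) and above 1 for 2, beside 19.2% and 15.4% of all genes with 1 transcript. In the range of 39 to 371 fragments it lay below 1 for 3 of 7, beside 13.0%. Besides Cdk2, Mycn stood at 2.43 and 1.57 FPKM (ratio 0.644, 0.464 to 0.886) and Ccne1 at 10.9 and 8.08 FPKM (ratio 0.742, 0.626 to 0.877). Of 16 inhibitors and pocket protein genes, 8 were lower and 8 higher (5 and 11 with Actb made equal). The interval lay below 1 for 6 of the 14 that had one (42.9%) and above 1 for 1. This share below 1 was larger than the 35.3% of the G1 genes. In the range of 39 to 371 fragments it lay below 1 for 2 of 5 inhibitors. The inhibitors that differed most were lower at puberty, namely Cdkn1c from 8.91 to 4.32 FPKM, Gas1 from 3.07 to 1.64 FPKM and Cdkn2c from 2.70 to 1.41 FPKM. They encode a p57 kinase inhibitor, a growth arrest protein of the membrane and an inhibitor of CDK4 and CDK6. Ccng1, a target of p53 and the highest of the list, stood at 81.8 and 87.2 FPKM.

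**Figure D5:**
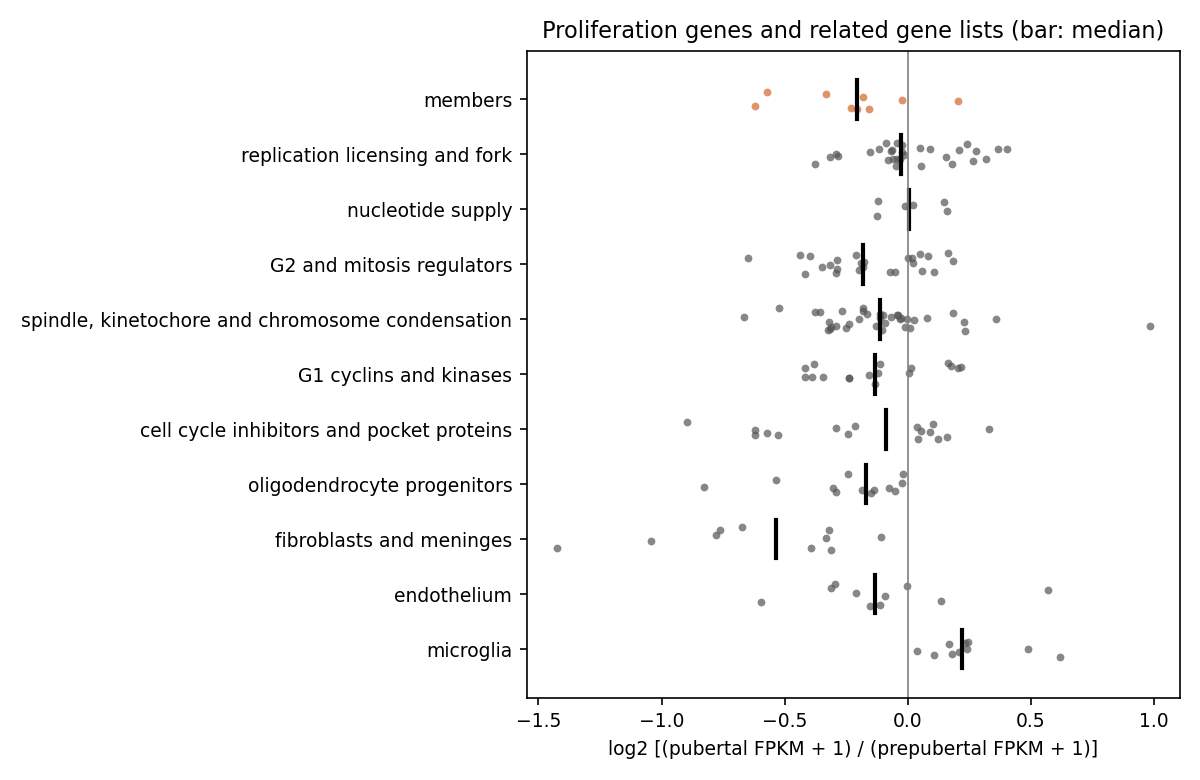
Log2 difference, (pubertal FPKM + 1) over (prepubertal FPKM + 1), of each gene (points) of the members and of related lists, with the list's median as a bar and 1 library per stage. Medians lie at -0.21 for the members, -0.18 for G2 and mitosis regulators, -0.53 for fibroblasts and meninges and 0.22 for microglia. With Actb made equal the medians are 0.03, 0.10, -0.21 and 0.59 in that order, beside 0.32 over genes above 0 in both libraries.

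Markers of cell types that can divide, and of fibroblasts, were compared as well. As deposited, the counts of these lists stand beside 51.2% of genes lower and 48.8% higher, and beside intervals below 1 for 19.2% and above 1 for 15.4%. Of 13 listed genes of oligodendrocyte progenitors 12 were in the table, and these 12 were lower at puberty, with a median of -0.17 and a sum of 296 and 242 FPKM. Gpr17, of progenitors on the way to oligodendrocytes, stood at 38.2 and 21.1 FPKM, Ptprz1 at 53.3 and 43.0 FPKM and Olig1 at 71.6 and 64.4 FPKM. All 10 genes of fibroblasts and meninges were lower, with a sum of 111 and 72.1 FPKM, among them Col1a1 at 9.57 and 2.93 FPKM, Col1a2 at 15.8 and 8.76 FPKM and Igf2 at 27.1 and 21.3 FPKM. Of 10 endothelial genes 8 were lower, with a sum of 159 and 162 FPKM. Kdr, the VEGF receptor of growing vessels, stood at 2.60 and 1.38 FPKM (ratio 0.532, 0.429 to 0.657), and Cldn5, a tight junction gene, at 70.9 and 65.5 FPKM. Slco1a4, a transporter gene of brain vessels, went the other way, from 29.0 to 43.5 FPKM over 2 transcripts. All 10 microglial genes were higher, with a sum of 313 and 372 FPKM, among them C1qa at 80.4 and 95.4 FPKM, Aif1 at 49.2 and 69.5 FPKM and Trem2 at 5.72 and 9.33 FPKM. Of 12 tanycyte and ependymal genes, 7 were lower and 5 higher (median -0.04), with the interval below 1 for 1 and above 1 for 1 of 10. Vim, an intermediate filament of tanycytes and other glia, stood at 68.5 and 64.7 FPKM, Rarres2 at 37.0 and 35.7 FPKM, and Ccdc153 at 11.98 and 16.2 FPKM. For the other lists, intervals lay below 1 for 7 of 11 progenitor, 7 of 9 fibroblast, 4 of 9 endothelial and 0 of 9 microglial genes. They lay above 1 for 0, 0, 1 and 5 in that order. In these 5 lists no gene was at 0 in either library. With Actb made equal, 2 of 12 progenitor genes, 6 of 10 fibroblast genes, 2 of 10 endothelial genes, 0 of 10 microglial genes and 1 of 12 tanycyte genes were lower. The share over genes with at least 0.1 FPKM was then 14.8%. The part of these cells in the difference of the members was not tested.

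Markers of blood and pituitary were compared as well. Their counts stand beside 48.8% of genes with at least 0.1 FPKM higher, and beside intervals above 1 for 15.4%. The 7 red blood cell genes found were all higher at puberty, with a sum of 6847 and 13105 FPKM, with the globin genes Hbb at 2129.9 and 5898 FPKM and Hba1 at 3099.8 and 4817 FPKM. The interval lay above 1 for all 4 of them that had one. Of 10 pituitary genes 7 were higher, with a sum of 33.3 and 46.1 FPKM, most of it from Cga (24.6 and 29.97 FPKM) and Tshb (4.68 and 5.28 FPKM). The interval of Cga, 0.998 to 1.48, held 1. Of the 8 pituitary genes that had an interval, it lay above 1 for 3 (Gh1, Prl and Fshb) and below 1 for 0. Gh1 stood at 0.872 and 4.09 FPKM (10 and 37 fragments, ratio 4.69, 2.29 to 10.6). Prl was listed at 0 before puberty and at 3.40 FPKM at puberty, and Fshb at 0 and 0.396 FPKM (9 fragments). With Actb made equal, 0 of 7 red blood cell genes and 1 of 10 pituitary genes were lower, beside 14.8% of genes with at least 0.1 FPKM. The part of these cells in the levels of the members was not tested.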

How the data were processed

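Hypothalamic RNA was measured by RNA-seq in 2 groups of rats, with 1 library column per stage. Libraries were strand-specific and made after depletion of ribosomal RNA. The authors used TopHat for alignment, Scripture together with Cufflinks 2.1.1 for assembly, and Cuffdiff 2.1.1 to estimate FPKM for each transcript. The processing notes name the build Rnor_5.0. The FPKM values were used as deposited. The authors also deposited log2 ratios, p-values and q-values of their own comparison, which were not used, and tables of lncRNAs, which were not used either. Transcripts of one gene were summed, and 1 FPKM was added before log2 was taken.

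The step of 1 fragment was fitted to the FPKM and length of genes with 1 transcript. The fit was also run on simulated data made with the same formula. Such a run checks the fit, but not whether the deposited FPKM follow that formula. The interval of a ratio is the exact (Clopper-Pearson) interval of the pubertal share of a gene's fragments. In the simulation, 184 of 200 such intervals held the simulated ratio. With 1 library per stage no test was made, and the interval says nothing of the spread between rats. The members and lists were chosen with earlier results of these data known. Besides the members, genes were named by rule: in each cell cycle list the 3 with the largest difference at 1 FPKM or more and the highest, in each cell type list the 2 highest and the one that differed most. Relatives of the members in their protein families, Cdc20, Birc5, Cdca8, Fshb and Gh1 were added after their values were seen. Alternatives were a pseudocount of 0.1 or none, filters at 0.1 and 1 FPKM, scaling to equal medians or equal Actb, centring within 10 classes of length, the highest transcript and the FPKM of the comparison table. Promoter sequences are from RefSeq (GRCr8). Values were computed in Python 3.11.15 (scipy 1.17.1, numpy 2.4.6, pandas 2.3.3) and plotted with matplotlib 3.10.9.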

Additional observations from a re-analysis of the deposited data

How the results depend on the processing

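Multiplying pubertal values by 1.32, which makes Actb equal, turned the median log2 difference of the members from -0.21 to 0.032, lowered the members lower at puberty from 8 to 4 (the median of all genes above 0 in both libraries moved to 0.32 as well, so the median of the members stayed below it), and changed the other cell cycle genes at least 1.5-fold lower and higher from 2 and 1 to 0 and 10. Without a pseudocount the median was -0.34 and the counts were 24 and 3, and with a pseudocount of 0.1 FPKM the counts were 18 and 2. Centring by length left 7 members lower, with a median of -0.21, and equal medians also left 7. Of 36 values of these 4 results, 27 kept their direction and stayed within 0.1 on the log2 scale or 1.5 times of a count. Of these, 6 values of the members could not move, because each member has 1 transcript, the same FPKM in both tables and a level past 0.1 FPKM. The filter at 0.1 FPKM could not move the counts of the other cell cycle genes either. A gene below 0.1 FPKM in both libraries cannot differ 1.5-fold in FPKM + 1. No paired analysis was possible because each stage has 1 library, and for the same reason no replicate could be left out. Depth limits Cdk1, Rrm2 and Ccna2 most, since each rests on 13 to 34 fragments per library.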

Other observations

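Lists of other cell types in the tissue did not share one direction. Their counts stand beside 51.2% of genes with at least 0.1 FPKM lower at puberty and 48.8% higher. Of 12 genes of immature neurons, 6 were lower at puberty and 6 higher (median log2 difference -0.03). The highest were Stmn1 at 927 and 1127 FPKM and Tubb3 at 554 and 522 FPKM, which encode proteins of the microtubules of young neurons. Neurod1, a transcription factor of neurons that are being formed, differed most, at 1.43 FPKM before puberty (47 fragments) and 0.429 FPKM at puberty (11 fragments), a ratio of 0.299 with a counting interval of 0.140 to 0.585. Of 9 astrocyte genes 3 were lower and 6 higher (median 0.14), and Gja1, the main connexin of astrocytes, differed most, at 106 and 66.3 FPKM. The highest astrocyte genes went the other way, Aldoc from 1095 to 1293 FPKM over 2 transcripts and S100b from 693 to 764 FPKM. The choroid plexus list held 5 values lower and 5 higher (median 0.02), with Ttr lower at 29.0 and 23.0 FPKM, Folr1 at 2.37 and 3.01 FPKM (interval of the ratio 0.753 to 2.14) and Aqp1 higher at 1.22 and 2.21 FPKM (ratio 1.81, 1.29 to 2.56). Of the 15 hypothalamic peptide genes, 14 were higher at puberty (median 0.33), among them Oxt at 411 and 686 FPKM and Kiss1 at 1.46 and 3.78 FPKM over 3 transcripts. Pmch and Oxt have short transcripts (745 and 534 nt), and the class of 168 to 792 nt had a median of 0.06. Centred within length classes, 14 of the 15 were still higher, with a median of 0.27. With Actb made equal, 3 of 12 genes of immature neurons, 2 of 9 astrocyte genes, 0 of 10 choroid plexus values and 0 of 15 peptide genes were lower. The share over genes with at least 0.1 FPKM was then 14.8%.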
